A study of Mus musculus with 6 samples.

Results

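Peroxisomes are small organelles bounded by a single membrane in which fatty acids of very long or branched chain are shortened, ether lipids are begun, and hydrogen peroxide is made and broken down. They hold no DNA, and each of their proteins is imported by peroxins, the products of the *Pex* genes. In brown and beige adipocytes peroxisomes are abundant and contribute lipids to thermogenic function. The 33 genes described here were taken by symbol from the 55491 genes of the table. They comprise 13 *Pex* genes of biogenesis, 16 genes of metabolic enzymes, and 4 genes of transporters and membrane proteins. All 33 reached 10 counts in each library, so none was lost to a filter on low values.

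Bulk RNA-seq was performed on inguinal white adipose tissue (IWAT) of male mice at 4 weeks of age on regular chow, with 3 wild-type (*Ebf2*+/+) mice and 3 heterozygous knock-in mice carrying *Ebf2* p.E165X on 1 allele (E165X/+), as 1 library per mouse. The knock-in is a premature stop codon made with CRISPR/Cas9 in every tissue, in zygotes from B6SJLF1 mice, and founders were bred to C57BL/6J, the strain that the labels name. Total counts were 124927686, 106820505, and 123853070 in the wild-type libraries and 110850284, 117413441, and 135039488 in the E165X/+ libraries. Values below are CPM, counts scaled to a common library size with TMM factors, or log2 fold changes of E165X/+ against wild-type mice with their standard error (SE). *P* values come from the quasi-likelihood test of edgeR, adjusted over 32664 genes by the Benjamini-Hochberg method, unless DESeq2 is named. *Ebf2* itself measured 38.3, 41.3, and 37.2 CPM in wild-type and 22.8, 22.9, and 21.1 CPM in E165X/+ mice, with no overlap.

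The tissue labels were compared with marker genes. All 7 adipocyte markers were detected, with summed CPM of 10987, 11970, and 9401 in wild-type mice and 10127, 8654, and 6565 in E165X/+ mice, and *Fabp4*, a fatty acid carrier, had the highest CPM among them in each library. The third E165X/+ library stood apart in skeletal muscle markers. The 8 muscle markers, none of them at 0, summed to 39015 CPM in that mouse and to 661 to 6768 CPM in the other 5. The actin gene *Acta1* had the highest CPM among them in that library, with 11529, beside 11440 for the fast myosin gene *Myh4*. The 7 thermogenic adipocyte markers summed to 153, 208, and 204 CPM in wild-type and 37.8, 41.2, and 86.2 CPM in E165X/+ mice. Their highest CPM was that of *Cidea*, a lipid droplet protein, in wild-type libraries and that of *Cox8b*, a cytochrome oxidase subunit also made in muscle, in E165X/+ libraries. In bulk tissue, fewer cells of a type and less RNA per cell cannot be told apart.

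Most peroxisomal genes had a lower mean in E165X/+ mice, by a small margin. The log2 fold change was negative for 31 of the 33 genes, where 47.9% of all genes tested and 43.9% of genes that reached 10 counts in each library were negative. The median was −0.22 and the range −1.04 to 0.11, while the median over all genes tested was 0.014. All 7 adipocyte markers were negative too, with a median of −0.28, and 0 of them were lower at an unadjusted *P* under 0.05. None of the 33 passed the thresholds of edgeR, which required both an adjusted *P* under 0.05 and a linear change of more than 1.5-fold, and adjusted *P* ran from 0.445 to 0.974. Those thresholds were passed by 0.00918% of all genes tested, that is 3 genes, and in DESeq2 by 0.610% of its 16078 genes and by none of the 33. At an unadjusted *P* under 0.05, 10 of the 33 were lower and 0 higher. The same threshold was met in the lower direction by 3.09% of all genes tested and by 4.21% of genes that reached 10 counts in each library, and in the higher direction by 1.68% of all genes tested. DESeq2 at an adjusted *P* under 0.05 gave 2 of the 33 as lower, *Abcd3* and *Phyh*, against 1.07% of its genes in that direction. The ranges of the genotypes did not overlap for 13 genes lower in E165X/+ mice and for 1 gene higher. Such separation was seen in 6.78% of genes with at least 10 counts downward and in 6.66% upward. With CPM on total counts in place of TMM, 6 of the 33 were lower without overlap, against 3.88% of genes. Without the third E165X/+ mouse, 7 of the 33 were lower at an unadjusted *P* under 0.05, and 14 were lower without overlap, against 3.54% and 12.8% of genes.

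**Figure D1:**
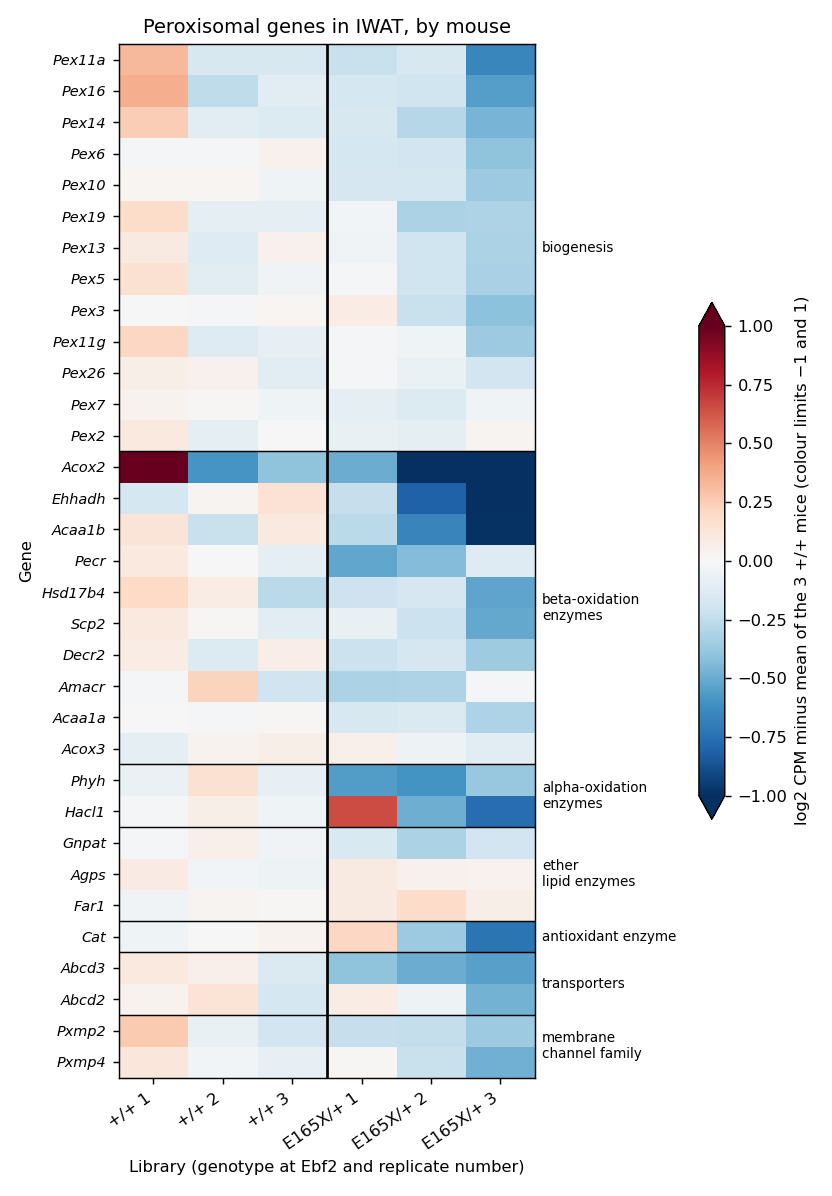
Heatmap of the 33 peroxisomal genes in the 6 mice, with each cell the log2 CPM minus the mean of the wild-type mice and genes arranged by role. The third E165X/+ mouse was the lowest of the 6 in 24 genes and the first wild-type mouse was the highest in 20. Shares over all genes were not computed for these counts, so whether they are particular to peroxisomal genes is not known.

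**Figure D2:**
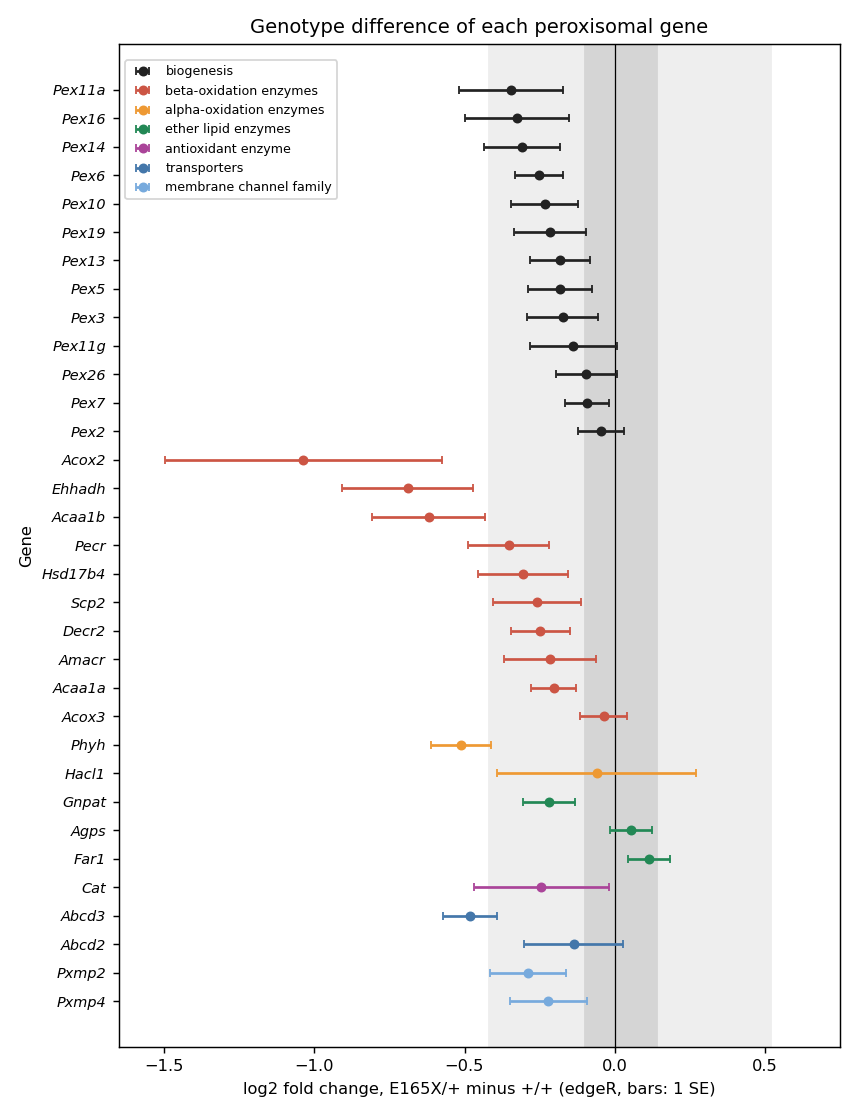
Log2 fold change of E165X/+ against wild-type mice for each of the 33 genes, with bars of 1 SE, beside the spread of all genes that reached 10 counts in each library (dark band, middle 50%, from −0.10 to 0.14; light band, middle 90%, from −0.42 to 0.52). *Acox2*, *Ehhadh*, *Acaa1b*, *Phyh*, and *Abcd3* lie left of the light band.

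*Abcd3* and *Phyh* act together on branched-chain fatty acids and were the members with the smallest *P* values. *Abcd3* (chromosome 3, GRCm38) encodes an ATP-driven carrier of the peroxisomal membrane that brings in branched-chain and dicarboxylic acyl-CoA. It measured 141, 136, and 119 CPM in wild-type and 99.7, 93.5, and 90.3 CPM in E165X/+ mice. Every E165X/+ mouse was below every wild-type mouse. The means were 132 ± 11.4 and 94.5 ± 4.76 CPM (SD, n = 3 mice), a decrease of 28.4% (log2 fold change −0.48, SE 0.090). The adjusted *P* was 0.445 from edgeR and 0.000977 from DESeq2, so *Abcd3* fell by DESeq2 alone. *Phyh* (chromosome 2) encodes phytanoyl-CoA hydroxylase, the first enzyme of peroxisomal alpha-oxidation, which removes 1 carbon from methyl-branched fatty acids such as phytanic acid. It measured 134, 156, and 133 CPM in wild-type and 95.4, 93.1, and 108 CPM in E165X/+ mice, again without overlap. The means were 141 ± 13.05 and 98.9 ± 8.23 CPM (SD, n = 3 mice), which is 29.8% lower in E165X/+ mice (log2 fold change −0.51, SE 0.10). The adjusted *P* was 0.497 from edgeR and 0.00215 from DESeq2. Without the third E165X/+ mouse, DESeq2 gave adjusted *P* values of 0.00312 for *Abcd3* and 3.87e-05 for *Phyh*.

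The promoters of *Abcd3* and *Phyh* are shown because these genes had a DESeq2-adjusted *P* under 0.05, though their changes were less than 1.5-fold. That of *Ehhadh* is shown because this gene had the largest log2 fold change of the genes without overlap. Each runs from 250 bases before to 50 bases after a RefSeq transcript start on GRCm38.p6, and capitals mark the letters CCCNNGGG, the core of the motif known for EBF proteins, which reads alike on both strands.
Abcd3 (chr3:121815253-121815552, minus strand): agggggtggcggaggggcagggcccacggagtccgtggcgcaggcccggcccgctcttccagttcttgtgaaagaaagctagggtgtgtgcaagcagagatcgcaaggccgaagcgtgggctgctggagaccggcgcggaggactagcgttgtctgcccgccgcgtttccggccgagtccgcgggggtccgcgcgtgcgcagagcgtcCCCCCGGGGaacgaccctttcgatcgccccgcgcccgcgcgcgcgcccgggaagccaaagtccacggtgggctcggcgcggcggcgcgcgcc
Phyh (chr2:4918746-4919045, plus strand): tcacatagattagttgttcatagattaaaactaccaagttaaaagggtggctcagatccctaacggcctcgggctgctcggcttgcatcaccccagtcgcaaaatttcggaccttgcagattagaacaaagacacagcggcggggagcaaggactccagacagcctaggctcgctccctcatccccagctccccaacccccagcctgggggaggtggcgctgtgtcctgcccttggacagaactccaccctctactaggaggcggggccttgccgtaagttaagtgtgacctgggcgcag
Ehhadh (chr16:21787785-21788084, minus strand): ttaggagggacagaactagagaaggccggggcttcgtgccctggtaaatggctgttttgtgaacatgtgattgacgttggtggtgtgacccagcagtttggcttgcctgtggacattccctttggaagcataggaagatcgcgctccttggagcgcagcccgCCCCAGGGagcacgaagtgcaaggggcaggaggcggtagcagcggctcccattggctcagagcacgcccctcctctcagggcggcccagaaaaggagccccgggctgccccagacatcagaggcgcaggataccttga
*Abcd3* holds a pair of overlapping matches that begin 42 and 41 bases before the start, and the window of another RefSeq start of *Abcd3* holds none. *Ehhadh* holds 1 that begins 88 bases before the start, and *Phyh* holds none in this window. RefSeq promoters were matched for 27 of the 33 genes, and 4 of the 27 held the letters (*Abcd3*, *Ehhadh*, *Cat*, and *Pex5*), where 15.4% of 27025 genes did. A direct repeat of AGGTCA spaced by 1 base, the form that PPAR-RXR pairs are known to bind, was searched on both strands. It was in none of the 27 genes with those letters and in 0.0481% of all genes. A match of letters is a description of the window and not a measured binding site.

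Among the 10 enzymes of peroxisomal beta-oxidation, which shortens very long and branched acyl chains, all had negative log2 fold changes, with a median of −0.28. The genotypes were separated for 5 of them (6.78% of genes), and 5 had an unadjusted *P* under 0.05 (3.09% of all genes tested in that direction). *Acox2* and *Acox3* encode oxidases of the first step for branched chains. *Acox2* (chromosome 14) measured 1.51, 0.493, and 0.565 CPM in wild-type and 0.527, 0.368, and 0.359 CPM in E165X/+ mice. Its log2 fold change of −1.04 (SE 0.46, edgeR-adjusted *P* = 0.783) was the most negative of the 33, but the first wild-type mouse, with 182 counts against 46 to 70 in the other 5, was alone in standing high, and the genotypes overlapped. Without that mouse the log2 fold change of *Acox2* was −0.35. *Acox3* had a log2 fold change of −0.04 (95% interval −0.22 to 0.14). *Ehhadh* (chromosome 16) encodes the L-bifunctional enzyme of the middle steps, known as a target of PPARα. It measured 66.2, 76.3, and 82.8 CPM in wild-type and 63.6, 42.7, and 33.4 CPM in E165X/+ mice. The first E165X/+ mouse was just below the lowest wild-type mouse and the others were well below. The means were 75.1 ± 8.38 and 46.6 ± 15.5 CPM (SD, n = 3 mice), with a log2 fold change of −0.69 (SE 0.22, edgeR-adjusted *P* = 0.783, DESeq2-adjusted *P* = 0.0997). The D-bifunctional enzyme gene *Hsd17b4* had a log2 fold change of −0.31 (SE 0.15) with overlapping genotypes.

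The thiolases release acetyl-CoA in the last step. *Acaa1b* measured 23.2, 18.2, and 22.8 CPM in wild-type and 17.6, 13.5, and 10.7 CPM in E165X/+ mice, with a log2 fold change of −0.62 (SE 0.19, edgeR-adjusted *P* = 0.783, DESeq2-adjusted *P* = 0.0898). *Acaa1a* measured 110.3, 109.3, and 111.6 CPM in wild-type and 98.7, 99.8, and 89.2 CPM in E165X/+ mice, with a log2 fold change of −0.20 (SE 0.074). Neither thiolase overlapped between the genotypes, but they are near-identical copies between which reads can be divided wrongly, and their individual values are uncertain. *Scp2*, whose long product is the thiolase for branched chains, had a log2 fold change of −0.26 (SE 0.15) with overlap. Among auxiliary enzymes, *Decr2*, a dienoyl-CoA reductase, measured 22.0, 19.0, and 21.9 CPM in wild-type and 18.04, 18.58, and 16.36 CPM in E165X/+ mice. *Pecr*, an enoyl-CoA reductase, measured 11.8, 11.0, and 10.4 CPM in wild-type and 7.68, 8.18, and 10.1 CPM in E165X/+ mice. Both were separated by narrow gaps, with log2 fold changes of −0.25 (SE 0.098) and −0.35 (SE 0.14). *Amacr*, the racemase that prepares branched chains for oxidation, had a log2 fold change of −0.22 (SE 0.15) and overlapped.

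The other enzymes were less uniform. *Hacl1*, the lyase that follows *Phyh* in alpha-oxidation, was singled out after its values were seen because the E165X/+ mice diverged. It measured 41.4 to 44.4 CPM in wild-type mice and 67.1, 30.4, and 25.2 CPM in E165X/+ mice, so that 1 E165X/+ mouse was above and the others below all wild-type mice (log2 fold change −0.06, 95% interval −0.83 to 0.71). *Hacl1* and *Acox2* lie on chromosome 14, as *Ebf2* does, but far from it. They lie from bases 31607226 and 8225511, and *Ebf2* from base 67233292. An effect of linkage was not tested. *Cat* (catalase, chromosome 2), which breaks down hydrogen peroxide, measured 612, 633, and 647 CPM in wild-type and 727, 490, and 380 CPM in E165X/+ mice. The mice were arranged as for *Hacl1*, and the log2 fold change of *Cat* was −0.24 (SE 0.22). Its value ran from −0.54 to −0.05 with 1 mouse left out. Ether lipid synthesis uses *Gnpat* and *Agps* for its first steps inside the peroxisome and *Far1* for its fatty alcohols. *Gnpat* measured 239, 251, and 236 CPM in wild-type and 218, 194, and 212 CPM in E165X/+ mice without overlap (log2 fold change −0.22, SE 0.088). *Agps* and *Far1* had the only positive log2 fold changes of the 33, 0.05 (95% interval −0.11 to 0.22) and 0.11 (95% interval −0.05 to 0.28). *Far1* was the 1 gene higher without overlap, with 94.4 ± 2.20 CPM in wild-type and 102 ± 4.59 CPM in E165X/+ mice (SD, n = 3 mice). Over the 3 genes of ether lipid synthesis the median was 0.05.

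**Figure D3:**
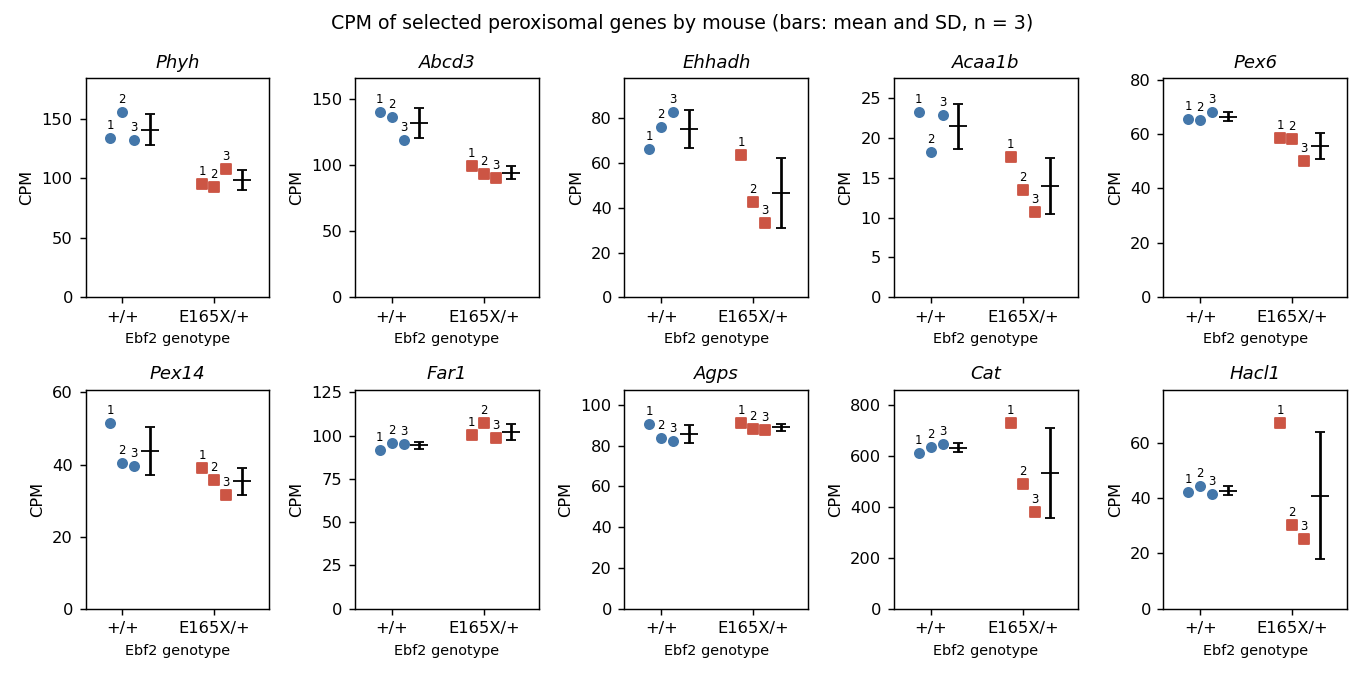
CPM of 10 peroxisomal genes in each mouse (points), with the mean and SD of each genotype (n = 3 mice). *Phyh*, *Abcd3*, *Ehhadh*, *Acaa1b*, *Pex6*, and *Pex14* are lower in every E165X/+ mouse than in any wild-type mouse, *Far1* is higher, and *Cat* and *Hacl1* spread widely in E165X/+ mice.

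The 13 *Pex* genes of biogenesis all had negative log2 fold changes, from −0.35 to −0.05 with a median of −0.18, and 2 had an unadjusted *P* under 0.05 (3.09% of all genes tested in that direction). The genotypes were separated for *Pex6*, *Pex7*, *Pex10*, and *Pex14* (6.78% of genes), though for *Pex7* only by 22.488 CPM in the lowest wild-type against 22.484 CPM in the highest E165X/+ mouse. *Pex6* encodes an ATPase that pulls import receptors back out of the membrane. It measured 65.5, 65.2, and 68.1 CPM in wild-type and 58.5, 58.1, and 50.1 CPM in E165X/+ mice (log2 fold change −0.25, SE 0.080, edgeR-adjusted *P* = 0.783). *Pex26*, its membrane anchor, had a log2 fold change of −0.09 (SE 0.10) and overlapped. *Pex14* encodes a subunit of the docking complex at which loaded receptors arrive. It measured 51.5, 40.3, and 39.6 CPM in wild-type and 39.0, 35.6, and 31.4 CPM in E165X/+ mice (log2 fold change −0.31, SE 0.13, edgeR-adjusted *P* = 0.783). The lowest wild-type and the highest E165X/+ mouse were close, and 28.3% of the exon bases of *Pex14* lie opposite the antisense gene *Gm17029*. *Gm17029* had 71 to 110 counts per library, against 4028 to 6183 for *Pex14*. Its partner in docking, *Pex13*, had a log2 fold change of −0.18 (SE 0.098).

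The receptors that carry matrix proteins, *Pex5* and *Pex7*, had log2 fold changes of −0.18 (SE 0.11) and −0.09 (SE 0.073). The ubiquitin ligase subunits that act on them, *Pex2* and *Pex10*, had values of −0.05 (SE 0.076) and −0.23 (SE 0.11). *Pex3*, *Pex16*, and *Pex19* insert membrane proteins and are needed for any peroxisome to form. Their log2 fold changes were −0.17 (SE 0.12), −0.33 (SE 0.17), and −0.22 (SE 0.12), each with overlap. With 1 mouse left out they ran from −0.31 to −0.07 for *Pex3*, from −0.46 to −0.13 for *Pex16*, and from −0.32 to −0.13 for *Pex19*, smallest without the third E165X/+ mouse for *Pex3* and without the first wild-type mouse for the others. *Pex11a* and *Pex11g* elongate the membrane before division, and *Pex11a* is known as the form that responds to peroxisome proliferators. They had log2 fold changes of −0.35 (SE 0.17) and −0.14 (SE 0.15), also with overlap. Leaving out 1 mouse gave −0.45 to −0.18 for *Pex11a* and −0.21 to −0.035 for *Pex11g*. Among the remaining membrane genes, *Abcd2*, a carrier of very long chains, had a log2 fold change of −0.14 (SE 0.16). *Pxmp2*, which encodes a pore of the peroxisomal membrane, had a log2 fold change of −0.29 (SE 0.13) without overlap. For *Pxmp4* the value was −0.22 (SE 0.13) with overlap. These 2 values ran from −0.40 to −0.16 and from −0.35 to −0.10 with 1 mouse left out.

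The median log2 fold change was −0.25 for the 16 metabolic enzymes and −0.18 for the 13 *Pex* genes of biogenesis, and the difference between these groups was not tested. Separation without overlap was seen for 7 of 16 enzymes downward and for 4 of 13 *Pex* genes, against the 6.78% of genes above. Relative to the wild-type mean, the mean log2 CPM of the enzymes was 0.07, −0.02, and −0.05 in wild-type mice and −0.13, −0.34, and −0.44 in E165X/+ mice. For the *Pex* genes the values were 0.14, −0.08, and −0.05 in wild-type mice and −0.09, −0.18, and −0.34 in E165X/+ mice. The first E165X/+ mouse was just below the lowest wild-type mouse in both groups, and the third was the farthest below. For the 4 transporters and membrane proteins they were 0.13, 0.02, and −0.15 in wild-type and −0.14, −0.25, and −0.47 in E165X/+ mice, with overlap. The E165X/+ mice were below the wild-type minimum in 15, 23, and 29 of the 33 genes, in the order of their labels. They were above the wild-type maximum in 5, 1, and 1. The shares over all genes were not computed for these counts, so whether they are particular to peroxisomal genes is not known. The third E165X/+ mouse also had the lowest sum of adipocyte markers and the highest of muscle markers. The mean log2 CPM of the adipocyte markers relative to the wild-type mean was 0.05, 0.08, and −0.13 in wild-type mice. In the E165X/+ mice it was −0.14, −0.20, and −0.66. The part of these markers in the peroxisomal values was not tested.

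Other cell types were examined in the same way. Summed CPM ran from 1184 to 1566 for 5 macrophage markers, with *Lyz2* highest in each library, from 143 to 213 for 4 T cell markers, with *Cd4* or *Cd8a* highest, from 657 to 923 for 3 endothelial markers, with *Pecam1* or *Cdh5* highest, and from 438 to 597 for 4 adipocyte progenitor markers, with *Ly6a* highest in each library. The sums of these lists overlapped between the genotypes. The 4 B cell markers summed to 251, 402, and 410 CPM in wild-type and 420, 480, and 447 CPM in E165X/+ mice, without overlap. The 5 epithelial markers summed to between 1.55 and 69.5 CPM, with *Krt5* at 0.00781 to 50.3 CPM, and the genotypes overlapped. Hepatocyte markers, from a tissue rich in peroxisomes, summed to 9.408 to 17.997 CPM, nearly all from *Alb*, with at most 1 of the 4 at 0 in a library. Mitochondrially encoded genes took 8.24%, 9.63%, and 8.11% of counts in wild-type and 7.14%, 6.14%, and 6.87% in E165X/+ mice.

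A further 45 peroxisomal genes were listed, of which 44 had a count. Their median log2 fold change was −0.19, with 36 of 44 negative. Of the 44, 17 were lower and 0 higher at an unadjusted *P* under 0.05, edgeR called 0, and DESeq2 gave 4 as lower at an adjusted *P* under 0.05. The shares over all genes were 3.09%, 1.68%, 0.00918%, and 1.07% in the same order. The 31 enzymes among them had a median of −0.28 and held 15 of the 17, while the 9 genes of biogenesis and division had a median of −0.04 and held 1. *Slc27a2*, an acyl-CoA synthetase and carrier for very long chains, measured 1.41, 5.74, and 6.00 CPM in wild-type and 0.199, 0.0721, and 0.226 CPM in E165X/+ mice. It fell by DESeq2's test alone (log2 fold change −4.72, SE 0.68, edgeR-adjusted *P* = 0.229, DESeq2-adjusted *P* = 3.72e-07). *Ech1*, a dienoyl-CoA isomerase found in peroxisomes and mitochondria, measured 240, 256, and 233 CPM in wild-type and 191, 181, and 162 CPM in E165X/+ mice (log2 fold change −0.45, SE 0.097, edgeR-adjusted *P* = 0.625, DESeq2-adjusted *P* = 0.00247). *Hsdl2*, a dehydrogenase-like protein, and *Nudt7*, which degrades coenzyme A, had log2 fold changes of −0.33 (SE 0.081) and −0.62 (SE 0.16), with adjusted *P* values of 0.0424 and 0.0272 from DESeq2 and 0.783 from edgeR. *Dhrs4*, a carbonyl reductase, and *Paox*, a polyamine oxidase, had values of −0.35 (SE 0.096) and −0.33 (SE 0.091) and passed in neither tool. *Pex5l*, a relative of *Pex5*, had a log2 fold change of −0.16 (SE 0.20).

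Mitochondrial beta-oxidation, which handles the common long chains, was set beside the peroxisomal genes. All 17 listed genes had negative log2 fold changes, with a median of −0.60, and 16 were lower at an unadjusted *P* under 0.05. DESeq2 gave 15 as lower at an adjusted *P* under 0.05, and edgeR called none. The corresponding shares over all genes were 3.09%, 1.07%, and 0.00918%. The mean log2 CPM relative to wild-type was 0.03, 0.09, and −0.11 in wild-type mice and −0.67, −0.79, and −0.58 in E165X/+ mice. *Cpt1b*, the form of the carnitine transferase also abundant in muscle, measured 71.6 CPM in the third E165X/+ mouse and 8.16 and 4.92 CPM in the others of that genotype. Without *Cpt1b* the means over the other 16 genes were 0.05, 0.08, and −0.13 in wild-type mice and −0.57, −0.66, and −0.67 in E165X/+ mice, so the place of the third E165X/+ mouse within its genotype turned on that gene. *Acaa2*, the mitochondrial thiolase, had a log2 fold change of −0.97 (SE 0.11), beside −0.62 and −0.20 for the peroxisomal *Acaa1b* and *Acaa1a*. *Decr1*, the mitochondrial dienoyl-CoA reductase, had a value of −0.56 (SE 0.12), beside −0.25 for *Decr2*. No test of the difference between the lists was made.

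**Figure D4:**
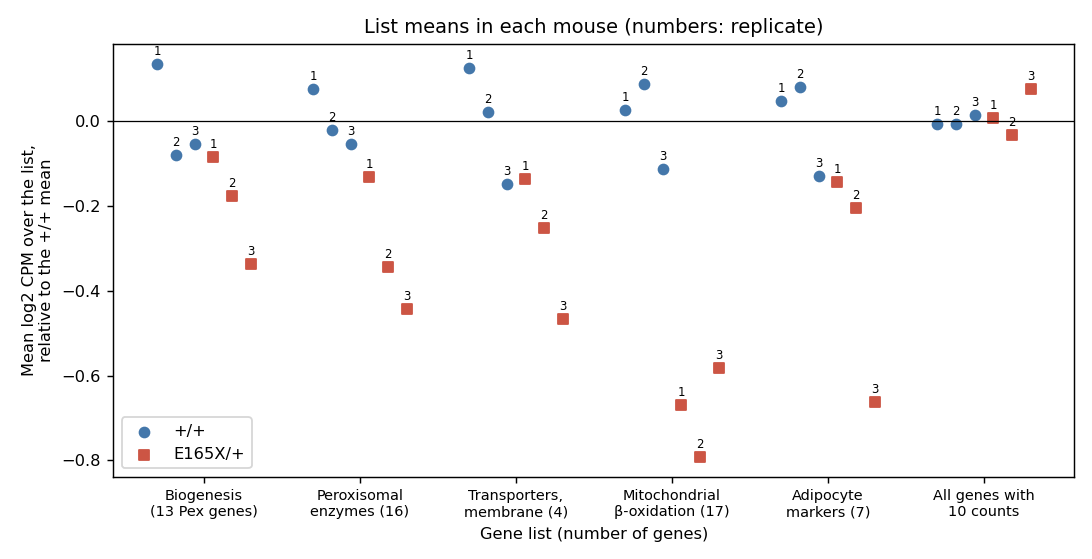
Mean log2 CPM relative to the wild-type mean in each mouse, for the peroxisomal gene groups, the mitochondrial beta-oxidation genes, the adipocyte markers, and all genes that reached 10 counts in each library. The 3 E165X/+ mice lie at −0.13 to −0.44 for peroxisomal enzymes, −0.09 to −0.34 for biogenesis genes, and −0.58 to −0.79 for mitochondrial beta-oxidation with *Cpt1b* included.

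PPARα is the classic activator of peroxisomal enzyme genes. Of 6 genes of PPAR receptors and their partners, 5 had negative log2 fold changes, as did 47.9% of all genes tested. *Ppara* and the coactivator gene *Ppargc1b* were the 2 lower at an unadjusted *P* under 0.05 (3.09% of all genes tested in that direction). *Ppara* measured 10.9, 15.8, and 20.2 CPM in wild-type and 4.39, 6.52, and 6.11 CPM in E165X/+ mice (log2 fold change −1.46, SE 0.25, edgeR-adjusted *P* = 0.377, DESeq2-adjusted *P* = 6.34e-07). *Pparg*, the receptor of adipocyte differentiation, measured 146, 169, and 139 CPM in wild-type and 165.2, 98.2, and 74.9 CPM in E165X/+ mice, with the first E165X/+ mouse inside the wild-type range and the others below it.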

How the data were processed

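RNA from IWAT of 6 mice was sequenced as 1 library each. The sources disagree on the library kit, and CPM is not scaled for transcript length, so levels were not compared between genes, except that the marker with the highest CPM is named for most lists. The authors deposited expected counts per gene, which per the submitters' processing notes involved cutadapt 4.8, FastQC 0.11.8, STAR 2.7.8a, RSEM 1.3.3, MultiQC 1.20, and GRCm38. Whether counting used strand is not given in the sources used here. All values were whole, so rounding changed none.

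Genes with a count in 1 or more libraries were tested with edgeR 4.0.16 (TMM, glmQLFit and glmQLFTest, genotype only, Benjamini-Hochberg adjustment) in R 4.3.3. SEs and 95% intervals follow from that test and cover the spread between mice, and 3 mice per genotype limit the precision. The SE of a log2 fold change is its size divided by the square root of the *F* statistic. Mean log2 CPM used a prior count of 2. DESeq2 1.42.0, limma-voom (limma 3.58.1), other scalings and filters, a replicate block, and each mouse left out were alternatives. The procedure was tried on simulated counts. No sources say whether mice shared a litter or batch.

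All 33 genes are named. Values for each mouse are given at an unadjusted *P* under 0.05, at an absolute log2 fold change of at least 1, and for catalase. From the other peroxisomal genes, the 6 with the smallest *P* and *Pex5l* are named, and some others that the rule would name are not reported here. *Ebf2*, the PPAR genes, the marker genes, and a few others were added for comparison, and *Hacl1*, *Far1*, *Acaa2*, *Decr1*, and *Cpt1b* were detailed after their values were seen. The members and lists were chosen with earlier results of these data known. Promoters came from RefSeq (GRCm38.p6) and exon overlaps from GENCODE. Of the 33 genes, 14 share exon bases with another gene, among them *Hacl1* (31.1% with *Gm49387*, same strand, at 0 counts in every library) and *Pex11g* (41.1%, opposite strand). A planned search for peroxisomal targeting signals was not run, as proteins were not analysed here.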

Additional observations from a re-analysis of the deposited data

How the results depend on the processing

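The number of genes called stayed at 0 of 33 under every alternative to the test, filter, scaling, threshold, or mice. The count of genes lower at an unadjusted *P* under 0.05 was 10, and it ran from 9 with limma-voom (3.55% of all genes) to 14 with DESeq2 (3.24%) and from 7 to 15 with 1 mouse left out, with 0 higher in each. The lowest count, 7, came without the first wild-type mouse (2.24% of all genes), without the second E165X/+ mouse (2.47%), or without the third (3.54%), and the highest without the first E165X/+ mouse (3.31%). The median log2 fold change of the biogenesis genes ran from −0.27 to −0.12 with 1 mouse left out, and the lowest size, −0.12, was without the third E165X/+ mouse. That of the enzymes ran from −0.31 to −0.20. The count of genes lower without overlap was 13 and fell to 6 with CPM on total counts, where 3.88% of genes were so separated, and ran from 13 to 22 with 1 mouse left out. The 22 came without the first E165X/+ mouse, where 11.9% of genes were separated, and the 13 without the first wild-type mouse, where 9.49% were, against 6.78% with all mice. With any other mouse left out the share was 10.9% to 12.8%. On total counts 29 of 33 genes were negative, and the median of genes with at least 10 counts moved from 0.02 to 0.07. Signs turned for 3 genes and held for 30 in 14 fits. *Hacl1* turned to 0.11 without the second E165X/+ mouse and to 0.19 without the third, and without the third *Acox3* turned to 0.00045 and *Abcd2* to 0.0077. With 1 mouse left out their lowest values were −0.62, −0.10, and −0.25. *Phyh* and *Abcd3* passed an adjusted *P* of 0.05 only with DESeq2, at 0.00413 and 0.00189 without independent filtering. The DESeq2 fit without the third E165X/+ mouse and the mitochondrial means without *Cpt1b* were chosen after seeing the data. The causes of these shifts were not tested. With the replicate number as a block, 12 genes were lower at an unadjusted *P* under 0.05 (2.53% of all genes), with medians of −0.19 for biogenesis genes and −0.26 for enzymes. The numbers were not taken as pairs, because the labels do not tie them to litters or batches. Deviations of same-numbered mice correlated at 0.15, −0.28, and −0.16 across genes, and no mouse correlated best with its own number. Each deviation is from a mean of only 3 mice, so these correlations cannot decide whether mice were paired.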
